A study of Homo sapiens with 18 samples.

Results

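Resistant 1 is a population of NCI-H460 cells, an adherent epithelial line from a human large-cell lung cancer, that is labelled resistant #1 and described as resistant to the pair of decitabine and all-trans retinoic acid (ATRA). It was compared with the parental NCI-H460 cells while both were grown without the drugs. The comparison used 6 of the 18 RNA sequencing libraries of the study, chosen by their labels: 3 biological replicates of resistant 1 in DMSO and 3 of parental cells in DMSO. The 3 DMSO libraries of resistant 2, the other resistant population, entered only to show where resistant 1 differs from it. All 3 groups carry the genotype label WT, grew in RPMI-1640 with 10% fetal bovine serum, received 0.7% (v/v) DMSO 24 h after seeding and were lysed at 72 h. The labels do not say how resistant 1 was derived, whether it is a clone, or how long it had been free of drug.

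Decitabine, an analogue of cytidine, enters replicating DNA and traps DNA methyltransferases, so that methylation of CG sites is lost over cell divisions. Genes that are commonly silenced by promoter methylation in somatic and cancer cells include the cancer-testis genes of the X chromosome and many Krüppel-associated box zinc finger genes of chromosome 19. ATRA binds the retinoic acid receptors, a group of transcription factors. DNA methylation was not measured in these libraries.

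Recovered depth was 125606735 to 140921034 reads per library in resistant 1, 123695964 to 135745339 in resistant 2 and 116877643 to 126603852 in parental cells. Values are normalized counts, which are reads divided by a scaling factor per library, and they are not divided by gene length. The cell label fits in part: the epithelial keratins KRT8 and KRT18 averaged 116834 and 51024 normalized counts in resistant 1, whereas E-cadherin (CDH1) averaged 0.915 in resistant 1 and 1.38 in parental cells. The epithelial adhesion molecule EPCAM stood at 3.9 ± 1.89 in resistant 1 and 93.5 ± 8.84 in parental cells. For EPCAM the log2 fold change over parental cells was -4.33 ± 0.32 (SE, limma adjusted p = 7.08e-07). CDKN2A, a cell cycle inhibitor gene, had no read in any of the 6 libraries. Of 10 epithelial markers 8 were tested, with 2 called higher and 4 lower. The 10 summed to 306279 to 446011 in resistant 1, led by KRT19, and 225754 to 273193 in parental cells, led by KRT8. Other cell types were checked by the summed level of their markers. For 12 fibroblast markers it was 4631 to 5098 in resistant 1, led by ACTA2, and 9666 to 11822 in parental cells, led by COL3A1, with 6 averaging at least 10 in resistant 1 and 6 in parental cells. For 10 endothelial markers it was 2555 to 4710 in resistant 1 and 1383 to 3001 in parental cells, led in both by EGFL7, with 6 averaging at least 10 in resistant 1 and 3 in parental cells; CLDN5 was at 0 in both. For 16 immune markers it was 203 to 287 in resistant 1 and 218 to 454 in parental cells, with 6 averaging at least 10 in resistant 1 and 2 in parental cells; CD3G and NKG7 were at 0 in both. For 8 erythroid markers it was 43.5 to 47.3 in resistant 1 and 33.6 to 65.1 in parental cells, with HBB at 0 in both. The part of these markers in the results was not tested, and in bulk RNA a smaller share of cells and less RNA per cell cannot be told apart. Nuclear copies of mitochondrial genes stood apart: 21 of 22 tested were called lower, and they held 29 reads over the 3 resistant 1 libraries, 109 over the resistant 2 libraries and 478099 over the parental ones. The humanin-like gene MTRNR2L12, a copy of this kind, had no read in either resistant population and 825, 1254 and 1598 normalized counts in parental cells, while all 37 genes of the mitochondrial genome had 0 reads in every library. The cause was not tested, and these copies are not described further.

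Expression differed widely between resistant 1 and parental cells. Of 21643 genes tested on log2(normalized count + 1) with limma, 6348 (29.3%) were called higher in resistant 1 and 5754 (26.6%) lower at a Benjamini-Hochberg adjusted p under 0.05. Groups did not overlap in 6269 of the 6348 and 5604 of the 5754, so lying outside the parental range adds little to a call. The median log2 fold change of all tested genes was 0.01. With a change of at least 2-fold required as well, 3724 (17.2%) remained higher and 2264 (10.5%) lower. A gene is said below to set resistant 1 apart where resistant 1 was called in the same direction against parental cells and against resistant 2, and all 3 resistant 1 libraries lay outside the range of the other 6. This held for 2679 genes above (12.4%) and 2066 genes below (9.55%). Both comparisons use the same 3 resistant 1 libraries. Among these, 258 genes were at least 16-fold above both other populations and 64 at least 16-fold below both on the log2(normalized count + 1) scale. Gene list counts below are to be read against the shares given here.

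**Figure D1:**
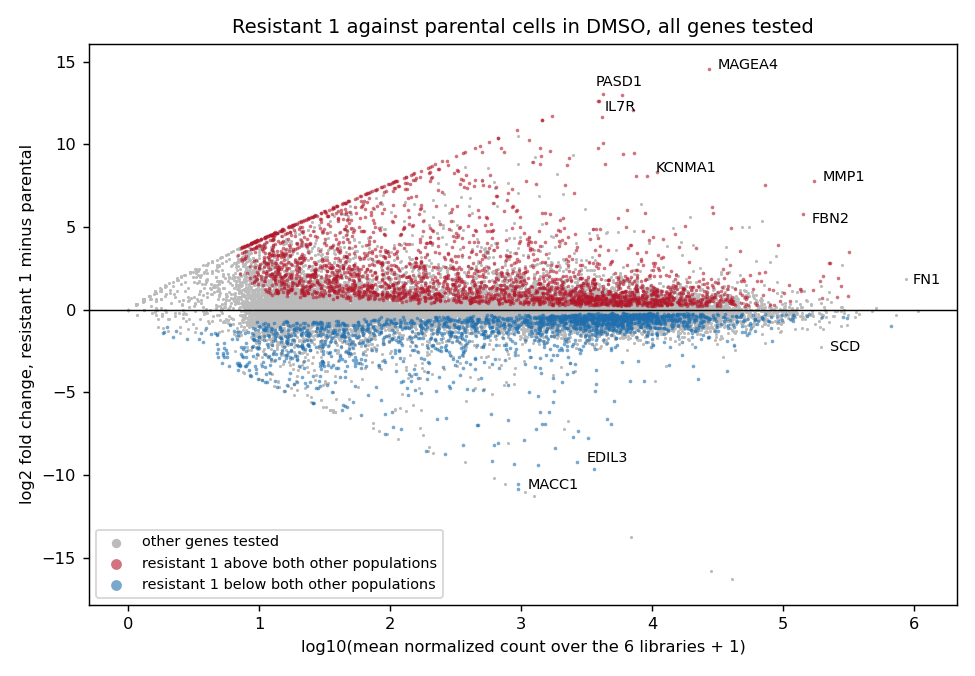
Each point is a tested gene, with the mean level over the 3 resistant 1 and 3 parental libraries on the horizontal axis (log10 of normalized count + 1) and the log2 fold change of resistant 1 over parental cells on the vertical axis; red and blue points are the genes above or below both other populations. MAGEA4 at 14.52 and MMP1 at 7.76 lie in the upper part, EDIL3 at -9.19 in the lower part, and the slanting edges are genes with almost no reads in 1 of the populations.

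Several genes far above both other populations were silent or nearly silent in them. PASD1, a cancer-testis gene with a PAS domain (ENSG00000166049, chromosome X, 151563622 to 151676739, GRCh38), had 8383, 8451 and 8239.8 normalized counts in resistant 1 and no read in resistant 2 or parental cells. PASD1 was at least 2763-fold higher than in parental cells (limma adjusted p = 5.44e-11). Bounds of this kind set a group without reads at a floor of 3 reads per library. SYCE1, a protein of the synaptonemal complex that joins chromosomes in meiosis (ENSG00000171772, chromosome 10, 133553901 to 133569835), had 3484, 3441 and 3299 in resistant 1 and likewise no read in the other 6 libraries. SYCE1 was at least 1127-fold higher than in parental cells (limma adjusted p = 8.56e-11). The same held for MUC15, a membrane mucin (973 ± 128), and for NAA11, a testis form of the N-terminal acetyltransferase subunit (889 ± 43.9), neither of which had a read outside resistant 1. MUC15 was at least 322-fold higher than in parental cells (limma adjusted p = 3.33e-10). NAA11 was at least 294-fold higher than in parental cells (limma adjusted p = 3.14e-10).

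CDH8, OSTN and SPARC had low counts in the other populations. CDH8, a type II cadherin best known from the nervous system (ENSG00000150394, chromosome 16, 61647242 to 62037035), had 14862, 13941 and 13585 normalized counts in resistant 1, 14.4, 11.7 and 3.26 in resistant 2 and 3.94, 0 and 6.49 in parental cells. CDH8 was higher than in parental cells, at a log2 fold change of 12.05 ± 0.67 (SE, limma adjusted p = 7.67e-08). For CDH8 the value over parental cells was 11.18 without parental replicate 2. Every resistant 1 library was thus far above the other 6, whose highest value was 14.4. OSTN, which encodes the muscle and bone peptide osteocrin, averaged 995 ± 377 in resistant 1, with no read in resistant 2 and 1 read in all in parental cells. OSTN was called higher than in parental cells (limma adjusted p = 5.92e-09). SPARC, a secreted matrix glycoprotein that binds collagen (ENSG00000113140, chromosome 5, 151661096 to 151687165), had 8545, 8204 and 8126 normalized counts in resistant 1, 22.6, 24.5 and 35.8 in resistant 2 and 2.95, 0 and 3.25 in parental cells. SPARC lay above the parental range in all 3 resistant 1 libraries (log2 fold change 11.66 ± 0.46, SE; limma adjusted p = 5.56e-09), and over resistant 2 the log2 fold change was 8.20 ± 0.46 (SE, limma adjusted p = 9.80e-08). For SPARC the value over parental cells was 10.98 without parental replicate 2. CES1 was expressed in both other populations and IL7R in resistant 2, each at a lower level than in resistant 1. CES1, the main carboxylesterase of liver and an enzyme that hydrolyses ester drugs, stood at 56395 ± 4085 normalized counts in resistant 1, 708 ± 202 in resistant 2 and 792 ± 216 in parental cells. For CES1 the log2 fold change over parental cells was 6.19 ± 0.22 (SE, limma adjusted p = 2.78e-09), and over resistant 2 it was 6.35 ± 0.22 (SE, limma adjusted p = 3.16e-09). The 3 resistant 1 libraries lay far above both other populations, whose means were close to each other. IL7R, the specific chain of the receptor of interleukin 7, had 1 read over the parental libraries, and its 7322, 7220.4 and 8746 normalized counts in resistant 1 also exceeded the 1975, 1138 and 1867 of resistant 2. Against resistant 2 the log2 fold change of IL7R was 2.26 ± 0.29 (SE, limma adjusted p = 6.13e-05).

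By difference of mean normalized counts, the largest gains among called protein-coding genes were, in falling order, those of FN1, SERPINE2, CXCL8, TM4SF1, MMP1 and GPRC5A. Fibronectin (FN1) rose by the most counts, with 1438604, 1430066 and 1190962 in resistant 1 and 383919, 348311 and 413658 in parental cells. FN1 was higher than in parental cells, at a log2 fold change of 1.82 ± 0.11 (SE, limma adjusted p = 1.28e-07). The serine protease inhibitor SERPINE2 had 577275, 584856 and 582246 normalized counts in resistant 1 and 54306, 45609.7 and 55928 in parental cells. SERPINE2 was above parental cells, at a log2 fold change of 3.49 ± 0.11 (SE, limma adjusted p = 8.85e-10). The tetraspanin-like TM4SF1 averaged 399291 ± 48805 in resistant 1 and 55504 ± 6810 in parental cells, and the receptor protein GPRC5A 388955 ± 21278 in resistant 1 and 55092 ± 11810.5 in parental cells. For TM4SF1 the log2 fold change over parental cells was 2.85 ± 0.22 (SE, limma adjusted p = 9.62e-07). GPRC5A was higher than in parental cells, at a log2 fold change of 2.84 ± 0.16 (SE, limma adjusted p = 1.06e-07). GPRC5A and TM4SF1 also exceeded resistant 2, by log2 fold changes of 3.48 and 2.50 (limma, larger adjusted p = 2.90e-06). FN1 did not set resistant 1 apart, since resistant 2 stood higher still at 6437071 ± 426326. The chemokine CXCL8 had 463958, 503394 and 441063 normalized counts in resistant 1 and 28732, 94669 and 136718 in parental cells, a wide spread in which its difference from resistant 2 was not called (-0.07 ± 0.51, limma adjusted p = 0.917). CXCL8 lay above the parental range in all 3 resistant 1 libraries (log2 fold change 2.70 ± 0.51, SE; limma adjusted p = 9.39e-04). For CXCL8 the value over parental cells was 2.04 without parental replicate 1. The largest losses by amount were the iron storage chain FTL (449317 ± 36509.7 in resistant 1 and 875899.8 ± 44959.9 in parental cells), the fatty acid desaturase SCD (66129 ± 4329 in resistant 1 and 321621 ± 11096 in parental cells), and the abundant growth-related genes HSPD1, NPM1, HNRNPA2B1 and NCL. These 4 encode a mitochondrial chaperone, a nucleolar chaperone, an RNA-binding protein and nucleolin, and their log2 fold changes ran from -1.16 to -0.96 (limma, largest adjusted p = 1.00e-05).

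**Figure D2:**
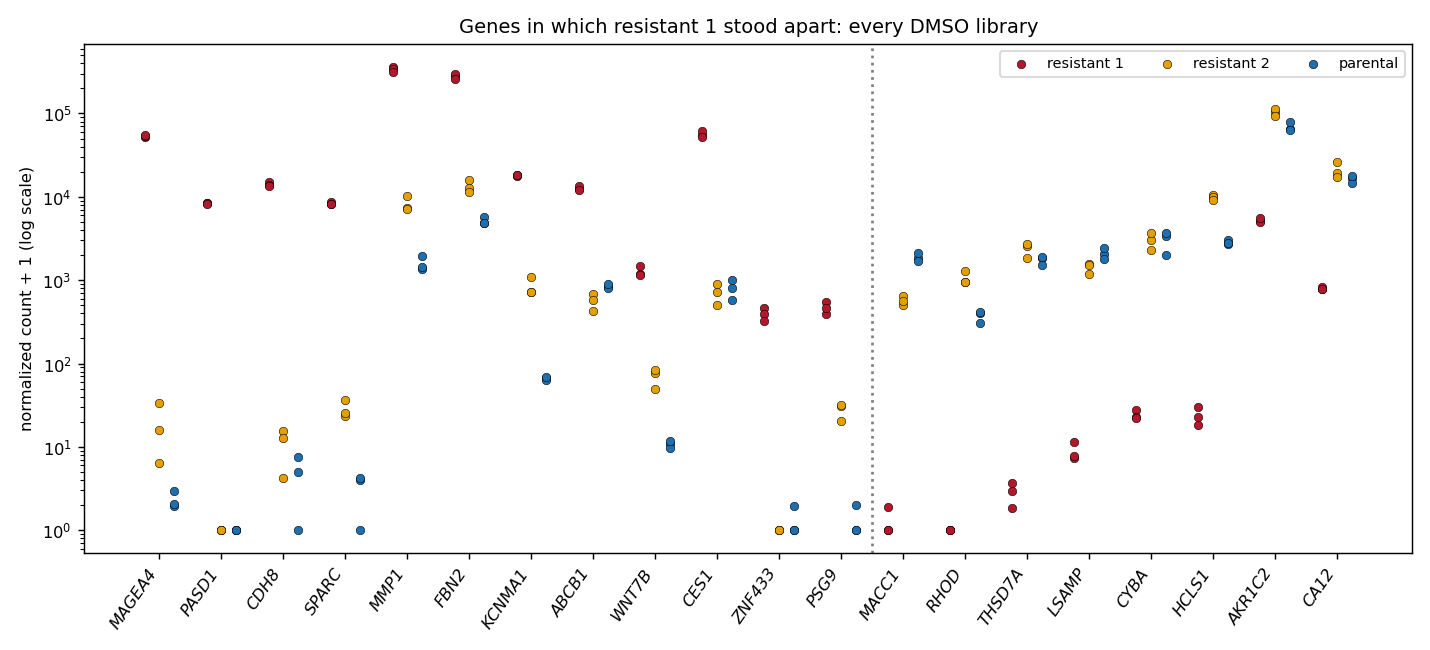
Every DMSO library as a point (normalized count + 1, log scale) for 12 genes above and, right of the dotted line, 8 genes below both other populations, with resistant 1 in red, resistant 2 in orange and parental cells in blue. In each of the 20 genes the 3 resistant 1 points lie together and outside the range of the other 6; MMP1 reaches 359323 in resistant 1 and RHOD is at 0 there.

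Many cancer-testis genes of the X chromosome were higher in resistant 1 than in both other populations. These genes are normally expressed in the testis and are silent in most somatic cells. Of 94 members of the families listed, 27 passed the filter, which asked for 10 normalized counts in 3 or more of the 9 libraries, of which 24 were called higher, 1 lower and 22 above both other populations. Since 11 of the 27 reached 10 in resistant 1 libraries alone, that count is partly set by the filter and is given as a description. Among all 94, 61 had no read in parental cells and 39 had none in resistant 1. Members of these families have near-identical copies, so the split of reads between them is uncertain.

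MAGEA4, a member of the melanoma antigen family that binds ubiquitin ligases (ENSG00000147381, chromosome X, 151912509 to 151925170), had 52121, 54297 and 55478 normalized counts in resistant 1, 32.9, 14.9 and 5.43 in resistant 2 and 1.97, 0.958 and 1.08 in parental cells. For MAGEA4 the log2 fold change over parental cells was 14.52 ± 0.46 (SE, limma adjusted p = 1.08e-09), and over resistant 2 it was 11.80 ± 0.46 (SE, limma adjusted p = 6.52e-09). For MAGEA4 the value over resistant 2 was 11.18 without resistant 2 replicate 3. It was thus among the abundant messages of resistant 1 and close to absent elsewhere. SSX1, a nuclear repressor known from the fusion gene of synovial sarcoma, had 12272, 11936 and 11436 normalized counts in resistant 1, 8.22, 9.59 and 16.3 in resistant 2 and 19.7, 17.2 and 13 in parental cells. SSX1 was higher than in parental cells, at a log2 fold change of 9.41 ± 0.25 (SE, limma adjusted p = 3.06e-10). VCX, a gene of the variably charged family, averaged 11691 ± 536 normalized counts in resistant 1, 2.46 ± 0.537 in resistant 2 and 2 reads in all in parental cells, and PAGE5 averaged 7787 ± 111 with 1 read in all in resistant 2 and 1 read in all in parental cells (limma, larger adjusted p = 8.57e-10). A stretch of the X chromosome from 152698752 to 152769747 (GRCh38) held 6 neighbours that all rose: MAGEA3, CSAG2, CSAG1, MAGEA12, CSAG3 and MAGEA6. Resistant 2 expressed part of this stretch. CSAG1 stood at 4918 ± 124 normalized counts in resistant 1, 3580.3 ± 294 in resistant 2 and 6.93 ± 2.62 in parental cells and MAGEA12 at 4628 ± 388 in resistant 1, 3030.2 ± 355 in resistant 2 and 7.13 ± 2.26 in parental cells, whereas MAGEA3 averaged 169 ± 17.3 in resistant 1 with no read in resistant 2, and MAGEA6 313 ± 40.7 with 2 reads in all. For CSAG1 the difference from resistant 2 was not called (0.46 ± 0.21, limma adjusted p = 0.0893). CSAG1 was called above resistant 2 without parental replicate 2 or parental replicate 3, and likewise with a pseudocount of 5, quantile normalization, edgeR or DESeq2 (largest adjusted p = 0.0326).

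Germline genes outside the X chromosome families were called in both directions. Of 23 tested members of a list of meiosis and piRNA genes, 6 were called higher and 6 lower, against 29.3% and 26.6% of all genes. Beside SYCE1, the Tudor protein TDRD5 of the piRNA pathway stood at 92.2 ± 5.43 normalized counts in resistant 1, 5.0 ± 3.38 in resistant 2 and 37.7 ± 3.04 in parental cells. TDRD5 was above parental cells, at a log2 fold change of 1.27 ± 0.37 (SE, limma adjusted p = 0.012). TEX15, a testis gene needed for silencing of transposons in the mouse, was lower at 187 ± 19.2 in resistant 1 and 389 ± 26.6 in parental cells, as was MEIOB, a meiotic single-strand DNA binding protein (55.7 ± 8.96 in resistant 1 and 177 ± 40.1 in parental cells). For TEX15 the log2 fold change over parental cells was -1.05 ± 0.21 (SE, limma adjusted p = 0.00125). MEIOB was lower than in parental cells, at a log2 fold change of -1.64 ± 0.23 (SE, limma adjusted p = 1.25e-04).

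Many zinc finger genes of chromosome 19 were also higher in resistant 1 than in both other populations. Most of these genes encode Krüppel-associated box proteins, which bind DNA through arrays of zinc fingers and recruit the corepressor TRIM28, often at transposons. Of 246 such genes, 227 were tested, 87 were called higher and 42 lower than in parental cells, and 65 stood above both other populations (28.6%, against 12.4% of all genes) with 9 below both. Of the 65, 26 averaged under 10 normalized counts in both resistant 2 and parental cells, 14 did so only in resistant 2, 1 only in parental cells and 24 in neither. Since 25 of the 227 reached the filter through resistant 1 alone, these counts are partly set by it. Promoter sequences are shown first for ZNF433 and ZNF256, which had next to no reads outside resistant 1, then for PASD1 and for RHOD, which was silent in resistant 1 alone. Each sequence is the RefSeq promoter (GRCh38.p14), 250 bases before to 50 bases after the annotated start, on the strand of the gene, with every CG in capitals, since CG is the site of DNA methylation.
ZNF433, chr19:12035630-12035929, minus strand: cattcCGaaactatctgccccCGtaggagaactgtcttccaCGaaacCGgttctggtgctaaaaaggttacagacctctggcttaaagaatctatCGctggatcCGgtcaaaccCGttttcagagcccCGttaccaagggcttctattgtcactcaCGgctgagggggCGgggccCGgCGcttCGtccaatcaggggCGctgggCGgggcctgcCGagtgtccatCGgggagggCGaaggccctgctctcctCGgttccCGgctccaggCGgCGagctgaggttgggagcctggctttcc
ZNF256, chr19:57947657-57947956, minus strand: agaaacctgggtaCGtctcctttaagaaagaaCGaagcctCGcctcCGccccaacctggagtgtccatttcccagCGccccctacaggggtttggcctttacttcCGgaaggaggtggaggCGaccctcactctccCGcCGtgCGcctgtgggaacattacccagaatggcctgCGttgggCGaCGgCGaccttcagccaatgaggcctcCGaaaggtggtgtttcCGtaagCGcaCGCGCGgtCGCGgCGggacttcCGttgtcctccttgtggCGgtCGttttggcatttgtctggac
PASD1, chrX:151563425-151563724, plus strand: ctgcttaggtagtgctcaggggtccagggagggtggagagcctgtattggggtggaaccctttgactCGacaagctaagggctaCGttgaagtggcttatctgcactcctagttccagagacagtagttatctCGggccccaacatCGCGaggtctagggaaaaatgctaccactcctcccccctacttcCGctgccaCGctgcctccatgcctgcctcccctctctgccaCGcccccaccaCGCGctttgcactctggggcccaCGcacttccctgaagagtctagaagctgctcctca
RHOD, chr11:67056597-67056896, plus strand: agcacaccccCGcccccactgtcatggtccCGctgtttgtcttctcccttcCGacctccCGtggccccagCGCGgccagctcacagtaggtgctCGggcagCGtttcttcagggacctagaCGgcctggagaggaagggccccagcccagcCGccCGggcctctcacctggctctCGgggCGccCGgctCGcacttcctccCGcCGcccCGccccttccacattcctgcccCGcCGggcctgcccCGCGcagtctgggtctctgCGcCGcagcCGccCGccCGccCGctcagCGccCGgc
CG reads the same on both strands. It occurs 22 times in the ZNF433 window, 26 in ZNF256, 11 in PASD1 and 30 in RHOD, and 96% of all 35116 promoters hold at least 1. Which start these cells use is not known. The median was 16 CG per window for zinc fingers above both other populations (56 of 65 with a listed promoter) and 21.5 for the rest (146 of 162). Over protein-coding genes at least 16-fold above both it was 14 (105 of 130). Over those as far below both it was 13.25 (34 of 44), and over all those tested 25 (11885 of 14709). The sets were chosen by expression, so the counts only describe.

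ZNF433 (ENSG00000197647, chromosome 19, 12014732 to 12035741) had 468, 388 and 324 normalized counts in resistant 1, 0, 0 and 0 in resistant 2 and 0, 0.958 and 0 in parental cells. ZNF433 was called higher than in parental cells (limma adjusted p = 7.82e-09). ZNF256 (ENSG00000152454, chromosome 19, 57940833 to 57947675) had 449.7, 431 and 368 in resistant 1 and no read in the other 6 libraries. ZNF256 was at least 138-fold higher than in parental cells (limma adjusted p = 1.03e-09). ZNF677 (ENSG00000197928, chromosome 19, 53235381 to 53254898) was alike, with 756, 892 and 587 and no read elsewhere, and ZNF665 stood at 749 ± 70.4 normalized counts in resistant 1, no read in resistant 2 and 1.69 ± 0.622 in parental cells. ZNF677 was at least 246-fold higher than in parental cells (limma adjusted p = 6.28e-10). ZNF665 was above parental cells, at a log2 fold change of 8.15 ± 0.28 (SE, limma adjusted p = 1.99e-09). All 4 were silent or nearly so outside resistant 1, and the groups did not overlap. The sequences of the zinc fingers are alike between neighbours, so reads may be split between them in part.

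Zinc finger genes that rose lay side by side in 3 stretches of chromosome 19 in which each tested protein-coding gene in turn was called higher, with a log2 fold change of at least 2. The stretch from 11721265 to 12156729 (GRCh38) held 11 genes, of which 9 stood above both other populations, with log2 fold changes from 2.37 to 8.29. Its exceptions were ZNF700, where resistant 2 reached the same level (1195 ± 178 in resistant 1, 1097 ± 155 in resistant 2 and 74.5 ± 3.99 in parental cells), and ZNF20. The most abundant member, ZNF440, stood at 1659 ± 141 normalized counts in resistant 1, 750.1 ± 60.0 in resistant 2 and 158 ± 46.5 in parental cells, and ZNF441 at 1045 ± 144 in resistant 1, 219 ± 33.7 in resistant 2 and 20.2 ± 3.09 in parental cells. For ZNF440 the log2 fold change over parental cells was 3.43 ± 0.20 (SE, limma adjusted p = 1.41e-07). ZNF441 was higher than in parental cells, at a log2 fold change of 5.63 ± 0.20 (SE, limma adjusted p = 2.13e-09). The stretch from 19997058 to 20950697 held 5 genes without a read in resistant 2, whose parental means were at most 15.3. ZNF486 led there with 442, 516 and 446 in resistant 1 and 17.7, 7.66 and 13 in parental cells. ZNF486 was above parental cells, at a log2 fold change of 5.15 ± 0.31 (SE, limma adjusted p = 1.41e-07). The stretch from 21804949 to 23147219 held 5 more, with means of 60.4 to 168 in resistant 1 and at most 0.355 in resistant 2 and 0.638 in parental cells.

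**Figure D3:**
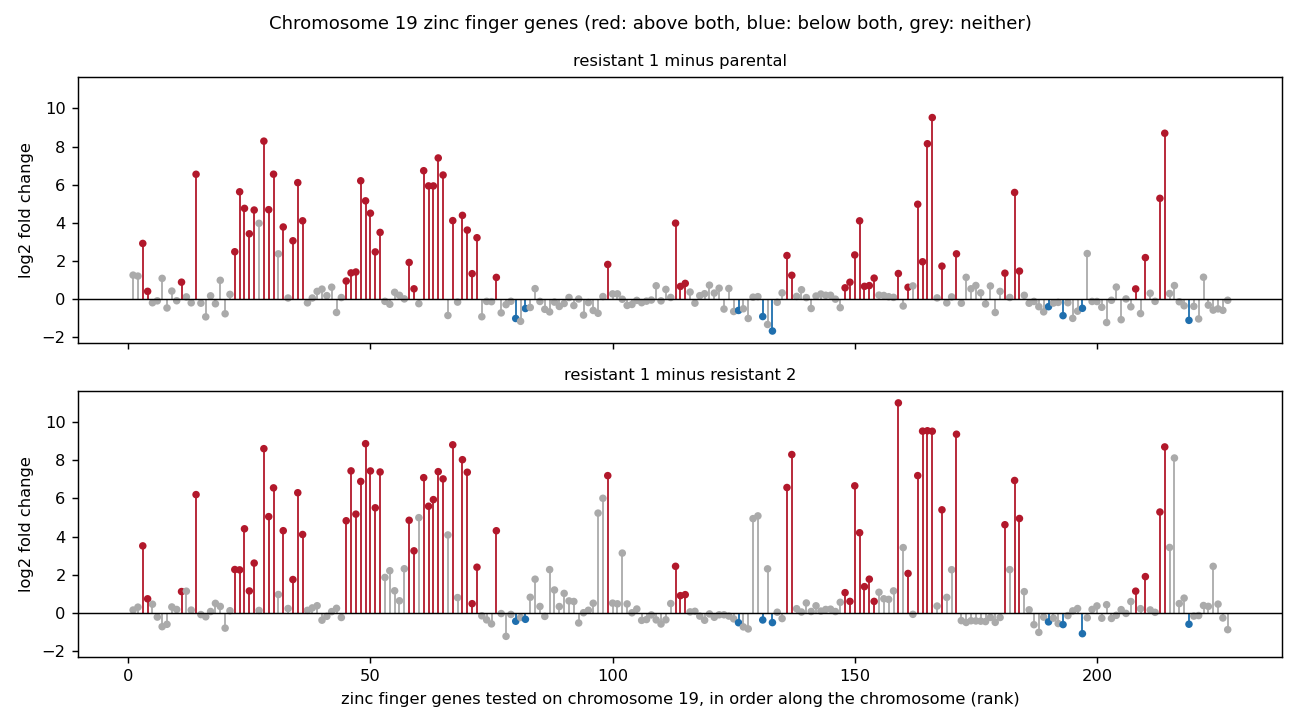
The 227 tested zinc finger genes of chromosome 19 in their order along the chromosome (horizontal axis, rank), with the log2 fold change of resistant 1 over parental cells above and over resistant 2 below (vertical axes); red marks genes above both other populations, blue below both. The 65 red genes often stand beside one another and reach 9.52 (ZNF677) in the upper panel, while the lowest of the 9 blue ones is at -1.68.

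Other stretches of neighbours rose in resistant 1 too. On chromosome 19, 42507304 to 43363172, 9 neighbours were called higher, among them 7 pregnancy-specific glycoprotein genes, which are placental members of the CEACAM family with near-identical copies. PSG9 had 543, 393 and 459 normalized counts in resistant 1, 29.8, 30.9 and 19.5 in resistant 2 and 0.985, 0 and 0 in parental cells, and PSG7 had 374, 359 and 423 in resistant 1, with 1.78 ± 1.28 in resistant 2 and no read in parental cells. PSG9 was called higher than in parental cells (limma adjusted p = 4.69e-09). PSG7 was at least 127-fold higher than in parental cells (limma adjusted p = 5.11e-09). Each PSG gene had at most 1 read over the parental libraries, and 8 of the 9 genes stood above both other populations. CEACAM1, an adhesion molecule at 1 end of the stretch, was the exception, at 456 ± 70.5 normalized counts in resistant 1, 888 ± 499.6 in resistant 2 and 11.3 ± 7.44 in parental cells.

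On chromosome 5, 35048756 to 36071358, all 5 tested neighbours stood above both other populations: the prolactin receptor PRLR, SPEF2, IL7R, CAPSL and the glycosyltransferase UGT3A2. PRLR averaged 169.7 ± 19.9 normalized counts in resistant 1, 16.6 ± 4.59 in resistant 2 and 2.02 ± 0.131 in parental cells, and SPEF2, a gene of sperm flagella, 1223 ± 127 in resistant 1, 323 ± 70.3 in resistant 2 and 201 ± 7.01 in parental cells. For PRLR the log2 fold change over parental cells was 5.82 ± 0.27 (SE, limma adjusted p = 1.69e-08). SPEF2 was higher than in parental cells, at a log2 fold change of 2.60 ± 0.17 (SE, limma adjusted p = 3.69e-07). On chromosome 11, 4680171 to 5505652, the embryonic globin HBE1 stood at 2176 ± 210.0 normalized counts in resistant 1, 12.6 ± 3.88 in resistant 2 and 168 ± 51.5 in parental cells between the olfactory receptor genes OR51E2 and OR51B4, which rose as well. HBE1 was above parental cells, at a log2 fold change of 3.73 ± 0.27 (SE, limma adjusted p = 5.84e-07). HBG2, whose copy HBG1 is near-identical, averaged 41 ± 3.98 normalized counts in resistant 1, 2.81 ± 1.61 in resistant 2 and 2.76 ± 2.71 in parental cells. Of the 8 erythroid markers, 2 were tested: HBG2 was called higher, and the adult globin HBA1, whose copy HBA2 is near-identical, lower (3.13 ± 2.49 in resistant 1 and 37.3 ± 14.1 in parental cells). For HBA1 the log2 fold change over parental cells was -3.34 ± 0.55 (SE, limma adjusted p = 3.66e-04). HBB had no read in resistant 1.

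In 6 further stretches of 4 neighbours each, resistant 2 was also high at some genes. They held CES1 with IRX6, MMP2 and LPCAT2 on chromosome 16 (1 of the 4 above both other populations), the protease inhibitors SPINK6, SPINK13 and SPINK7 with MARCOL on chromosome 5 (2 above both), and SYT14, SERTAD4, HHAT and the potassium channel KCNH1 on chromosome 1 (2 above both). The others were PPP4R4, SERPINA1, SERPINA5 and SERPINA3 on chromosome 14, TCN1 with 3 MS4A genes on chromosome 11, and ASIC2, CCL2, TMEM132E and CCT6B on chromosome 17, each with 1 gene above both.

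Among the genes below both other populations were several that resistant 1 had almost entirely lost. RHOD, a small GTPase of actin and endosome movement (ENSG00000173156, chromosome 11, 67056818 to 67072013), had no read in resistant 1, 948, 943 and 1296 normalized counts in resistant 2 and 406, 412 and 309.6 in parental cells. RHOD was at least 137-fold lower than in parental cells (limma adjusted p = 2.34e-10). MACC1, a regulator of the MET gene in colon cancer (ENSG00000183742, chromosome 7, 20134655 to 20217404), had 1 read over the resistant 1 libraries, 496, 643 and 565 in resistant 2 and 1867, 1706 and 2133 in parental cells. MACC1 was called lower than in parental cells (limma adjusted p = 2.34e-10). THSD7A, a membrane protein with thrombospondin domains (ENSG00000005108, chromosome 7, 11370357 to 11832198), had 0.868, 2.73 and 1.93 normalized counts in resistant 1, 1842, 2594 and 2736 in resistant 2 and 1819.6, 1527 and 1889.9 in parental cells. THSD7A was lower than in parental cells, at a log2 fold change of -9.31 ± 0.26 (SE, limma adjusted p = 3.75e-10). CYP24A1, the hydroxylase that breaks down active vitamin D (ENSG00000019186, chromosome 20, 54153449 to 54173973), had 2 reads over the resistant 1 libraries, 42737, 73969.7 and 70682 in resistant 2 and 141, 258 and 320.4 in parental cells. CYP24A1 was called lower than in parental cells (limma adjusted p = 2.68e-08). For all 4 the resistant 1 values lay at or next to 0.

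The secreted proteins SCUBE1 and FSTL4 fell in resistant 1 while resistant 2 held more than parental cells. SCUBE1 stood at 3.97 ± 1.1 normalized counts in resistant 1, 8320.2 ± 1099 in resistant 2 and 1334 ± 178 in parental cells, and FSTL4, a follistatin-like protein, at 32.2 ± 7.6 in resistant 1, 36777 ± 6130.3 in resistant 2 and 5407 ± 611 in parental cells. SCUBE1 was below parental cells, at a log2 fold change of -8.09 ± 0.19 (SE, limma adjusted p = 1.92e-10). For FSTL4 the log2 fold change over parental cells was -7.37 ± 0.18 (SE, limma adjusted p = 2.34e-10). HCLS1, a cortactin-like actin regulator best known from blood cells, had 21.7, 29.1 and 17.4 normalized counts in resistant 1, 10436, 9959.6 and 9069 in resistant 2 and 3033, 2708 and 2800.2 in parental cells. HCLS1 was lower than in parental cells, at a log2 fold change of -6.93 ± 0.17 (SE, limma adjusted p = 1.95e-10). CYBA, the p22phox subunit of NADPH oxidases, had 26.9, 21.8 and 21.2 normalized counts in resistant 1, 3033, 2319 and 3692 in resistant 2 and 3359, 3719 and 1989 in parental cells. CYBA was below parental cells, at a log2 fold change of -6.91 ± 0.24 (SE, limma adjusted p = 2.17e-09). LSAMP, a neuronal adhesion molecule, averaged 7.85 ± 2.23 normalized counts in resistant 1, 1423 ± 208 in resistant 2 and 2102 ± 292 in parental cells, and ADARB2, a brain protein of the adenosine deaminase family, 6.35 ± 1.33 in resistant 1, 1020.5 ± 439.6 in resistant 2 and 934 ± 102 in parental cells. For LSAMP the log2 fold change over parental cells was -7.91 ± 0.20 (SE, limma adjusted p = 2.69e-10). ADARB2 was lower than in parental cells, at a log2 fold change of -7.00 ± 0.27 (SE, limma adjusted p = 4.88e-09). In HCLS1, CYBA, LSAMP and ADARB2 each resistant 1 value was at most 29.1, and no other library fell under 703.

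A further set fell in resistant 1 against both other populations, but resistant 2 was itself low. The integrin ligand EDIL3 had 9.55, 10.9 and 4.83 normalized counts in resistant 1, 336, 413 and 393 in resistant 2 and 4863, 4574 and 6562 in parental cells, the adhesion molecule CADM2 stood at 10.1 ± 0.539 in resistant 1, 43.5 ± 9.45 in resistant 2 and 3636 ± 456 in parental cells, and the proton channel HVCN1 at 8.29 ± 3.09 in resistant 1, 42.3 ± 9.35 in resistant 2 and 7135 ± 673 in parental cells. EDIL3 was below parental cells, at a log2 fold change of -9.19 ± 0.26 (SE, limma adjusted p = 4.42e-10). For CADM2 the log2 fold change over parental cells was -8.35 ± 0.20 (SE, limma adjusted p = 1.92e-10). HVCN1 was lower than in parental cells, at a log2 fold change of -9.64 ± 0.26 (SE, limma adjusted p = 3.14e-10). On chromosome 18, 32672671 to 34891844, KLHL14, ASXL3, NOL4 and DTNA were all called lower than parental, and 2 of the 4 stood below both. DTNA, a dystrophin-associated protein, averaged 229 ± 28.5 normalized counts in resistant 1, 612 ± 65.9 in resistant 2 and 1554 ± 118 in parental cells. DTNA was below parental cells, at a log2 fold change of -2.76 ± 0.14 (SE, limma adjusted p = 3.82e-08).

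Genes of the extracellular matrix changed in both directions, by family. Of the matricellular and basement membrane genes, 25 of 38 tested members were called higher and 5 lower (median log2 fold change 1.16, against 0.01 over all genes). FBN2, a microfibril protein, had 279722, 293654 and 258218 normalized counts in resistant 1, 16009, 12853 and 11382 in resistant 2 and 5705, 4792 and 4839 in parental cells. For FBN2 the log2 fold change over parental cells was 5.76 ± 0.12 (SE, limma adjusted p = 1.15e-10), and over resistant 2 it was 4.38 ± 0.12 (SE, limma adjusted p = 7.03e-10). LOXL3, a lysyl oxidase that crosslinks collagen and elastin, had 12405, 12064 and 13374 normalized counts in resistant 1, 407, 384 and 442 in resistant 2 and 195, 177 and 201 in parental cells. LOXL3 was higher than in parental cells, at a log2 fold change of 6.04 ± 0.11 (SE, limma adjusted p = 5.44e-11), and over resistant 2 the log2 fold change was 4.94 ± 0.11 (SE, limma adjusted p = 1.39e-10). Both were far above the other 6 libraries. Tenascin C (TNC), by contrast, rose in both resistant populations, to 735 ± 156 in resistant 1 and 1153 ± 349.9 in resistant 2 with 3 reads in all in parental cells. Of the laminin chains, 6 of 12 tested members were called higher and 1 lower. LAMA1 rose to 201378, 195484 and 175852 in resistant 1 against 74991, 76220.2 and 86163 in parental cells, and LAMA4 averaged 1894 ± 415 normalized counts in resistant 1, 37096 ± 1456 in resistant 2 and 3.33 ± 1.41 in parental cells. LAMA1 was above parental cells, at a log2 fold change of 1.27 ± 0.10 (SE, limma adjusted p = 1.09e-06). For LAMA4 the log2 fold change over parental cells was 8.80 ± 0.23 (SE, limma adjusted p = 2.80e-10). LAMC3 fell (936 ± 157 in resistant 1 and 2869 ± 729 in parental cells). LAMC3 was lower than in parental cells, at a log2 fold change of -1.60 ± 0.20 (SE, limma adjusted p = 4.77e-05).

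Matrix metalloproteinases cut matrix proteins, and 10 of 18 tested members were called higher and 2 lower (median log2 fold change 0.75). The interstitial collagenase MMP1 (ENSG00000196611, chromosome 11, 102789920 to 102798160) had 359323, 343267 and 312815 normalized counts in resistant 1, 10259, 7370.3 and 7223 in resistant 2 and 1342, 1449 and 1942 in parental cells. MMP1 lay above the parental range in all 3 resistant 1 libraries (log2 fold change 7.76 ± 0.16, SE; limma adjusted p = 8.56e-11), and over resistant 2 the log2 fold change was 5.37 ± 0.16 (SE, limma adjusted p = 8.71e-10). Its neighbour stromelysin 1 (MMP3) had 138, 112 and 549 in resistant 1, 24.6, 38.4 and 26.1 in resistant 2 and no read in parental cells, so that resistant 1 replicate 3 was far above the other libraries. MMP3 was called higher than in parental cells (limma adjusted p = 3.20e-07), and over resistant 2 its log2 fold change was 2.77 ± 0.51 (SE, limma adjusted p = 8.22e-04). For MMP3 the value over resistant 2 was 2.06 without resistant 1 replicate 3. Macrophage elastase (MMP12) averaged 157 ± 43.4 in resistant 1 and 16.4 ± 7.33 in resistant 2, with no read in parental cells. MMP12 was at least 51.9-fold higher than in parental cells (limma adjusted p = 2.88e-08). MMP2, a gelatinase, was higher still in resistant 2, at 998 ± 40.8 normalized counts in resistant 1, 110687 ± 33354 in resistant 2 and 3.64 ± 1.39 in parental cells. For MMP2 the log2 fold change over parental cells was 7.80 ± 0.25 (SE, limma adjusted p = 9.90e-10). Of the serine protease inhibitors and plasminogen system genes, 16 of 26 tested members were called higher and 6 lower. The inhibitor elafin (PI3) stood at 2558 ± 1227 normalized counts in resistant 1, 6487 ± 1984 in resistant 2 and 3.28 ± 1.98 in parental cells. PI3 was higher than in parental cells, at a log2 fold change of 9.25 ± 0.42 (SE, limma adjusted p = 1.53e-08). SERPINB11 fell, with 106, 89.2 and 78.2 normalized counts in resistant 1, 37234, 29039.9 and 20758 in resistant 2 and 7708, 7927 and 11194 in parental cells. SERPINB11 lay below the parental range in all 3 resistant 1 libraries (log2 fold change -6.59 ± 0.21, SE; limma adjusted p = 1.18e-09).

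Collagen genes were called in both directions: 14 of 39 tested members were called higher and 18 lower (median -0.23). Below both other populations stood 12 (30.8%, against 9.55% of all genes). COL3A1, a fibrillar chain of connective tissue, had 29.5, 31.8 and 23.2 normalized counts in resistant 1, 555, 420.0 and 394 in resistant 2 and 5248, 7044 and 7132 in parental cells. For COL3A1 the log2 fold change over parental cells was -7.79 ± 0.19 (SE, limma adjusted p = 2.15e-10), and over resistant 2 it was -3.97 ± 0.19 (SE, limma adjusted p = 2.86e-08). COL1A1 averaged 26.9 ± 4.54 normalized counts in resistant 1, 2195 ± 652 in resistant 2 and 820.5 ± 247 in parental cells. COL1A1 was lower than in parental cells, at a log2 fold change of -4.84 ± 0.27 (SE, limma adjusted p = 7.33e-08). COL2A1, the chain of cartilage collagen, was low in both resistant populations, at 31.8 ± 5.62 normalized counts in resistant 1, 27.1 ± 13 in resistant 2 and 1165 ± 332 in parental cells, and its difference between them was not called (0.35 ± 0.38, limma adjusted p = 0.468). COL17A1, a hemidesmosome collagen, rose (99 ± 40.6 normalized counts in resistant 1, 62.3 ± 29.1 in resistant 2 and 2.35 ± 1.5 in parental cells). COL17A1 was above parental cells, at a log2 fold change of 4.93 ± 0.46 (SE, limma adjusted p = 4.50e-06). COL1A1 and COL3A1 are also fibroblast markers, whose summed level was lower in resistant 1 as given above; lumican (LUM) fell with them (58.5 ± 5.54 in resistant 1 and 1409 ± 231 in parental cells) while decorin (DCN) rose (117 ± 26.9 in resistant 1 and 21.8 ± 3.3 in parental cells).

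Integrins are the receptors that bind matrix, and 15 of 23 tested members were called higher and 5 lower (median log2 fold change 1.12). ITGA3, a laminin receptor chain, had 82862, 87521 and 108627 normalized counts in resistant 1, 96485, 70802 and 84875 in resistant 2 and 2797, 3300 and 2794 in parental cells. For ITGA3 the log2 fold change over parental cells was 4.97 ± 0.13 (SE, limma adjusted p = 3.53e-10). ITGA1, a collagen receptor chain, had 19127, 20525 and 17925 normalized counts in resistant 1, 9617, 10312 and 8259 in resistant 2 and 894, 784 and 1095 in parental cells, higher than in resistant 2 as well. ITGA1 was higher than in parental cells, at a log2 fold change of 4.39 ± 0.13 (SE, limma adjusted p = 6.43e-10), and over resistant 2 the log2 fold change was 1.03 ± 0.13 (SE, limma adjusted p = 5.47e-05). For ITGA3 the difference between the resistant populations was not called (0.15 ± 0.13, limma adjusted p = 0.386), and for ITGA4, an alpha chain of leukocyte adhesion, the same difference was -0.02 ± 0.22 (limma adjusted p = 0.939). ITGB3 averaged 127 ± 11.6 normalized counts in resistant 1, 558 ± 248 in resistant 2 and 5.41 ± 1.4 in parental cells. ITGB3 was above parental cells, at a log2 fold change of 4.34 ± 0.30 (SE, limma adjusted p = 4.56e-07). Over the family, 4 subunits stood above both other populations and 5 below both.

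**Figure D4:**
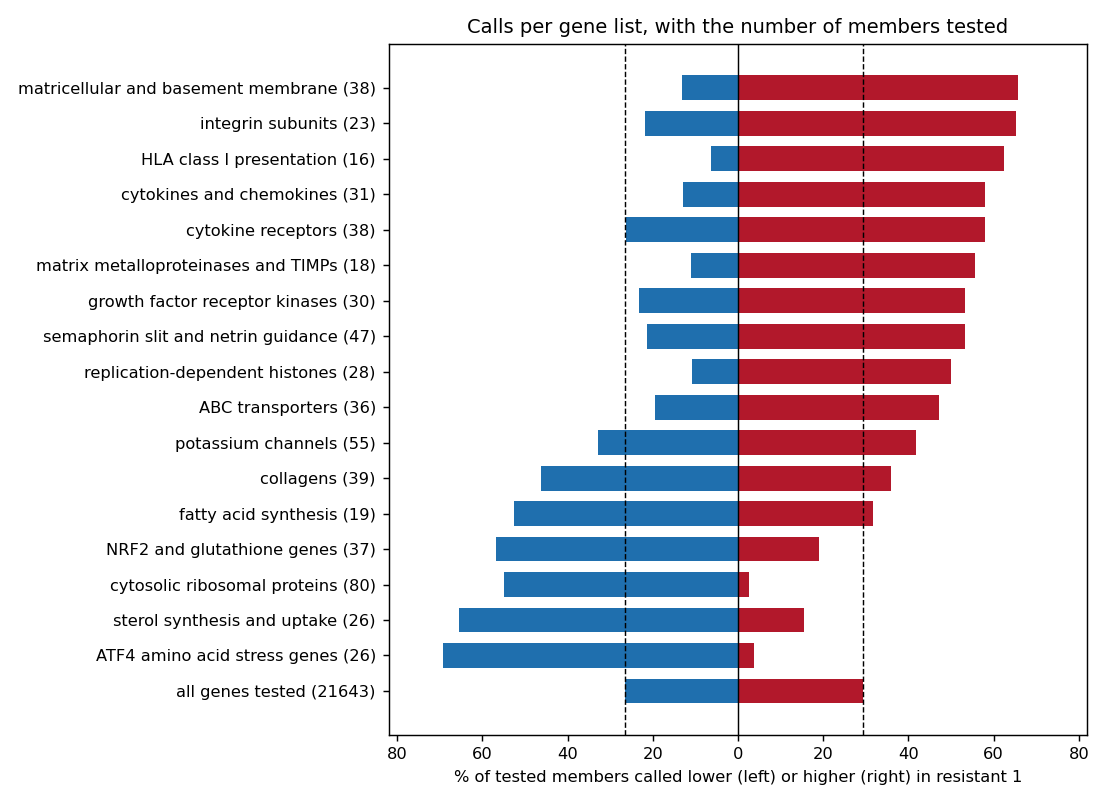
Bars give the percent of tested members called higher (right, red) or lower (left, blue) in resistant 1 than in parental cells for 17 gene lists and all genes, with the number of members tested in parentheses; dashed lines mark all genes (29.3% higher, 26.6% lower). Matricellular and integrin genes reach 65.8% and 65.2% higher, and ATF4 and sterol genes 69.2% and 65.4% lower.

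Cell adhesion genes changed without a common direction. Of the classical cadherins and factors of epithelial-mesenchymal transition, 9 of 18 tested members were called higher and 9 lower, so that all 18 were called. N-cadherin (CDH2) had 2351, 2378 and 1873 normalized counts in resistant 1, 9879, 8840.3 and 8594 in resistant 2 and 376, 314 and 333 in parental cells and lay between the other populations. For CDH2 the log2 fold change over parental cells was 2.68 ± 0.12 (SE, limma adjusted p = 1.79e-08). Beside CDH8, the neural cadherins CDH4 (1139 ± 192 normalized counts in resistant 1, 116 ± 24.7 in resistant 2 and 3.4 ± 2.14 in parental cells) and CDH12 (127 ± 19 in resistant 1, no read in resistant 2 and 7.89 ± 4.15 in parental cells) stood above both. CDH4 was higher than in parental cells, at a log2 fold change of 8.16 ± 0.38 (SE, limma adjusted p = 1.79e-08). CDH12 was above parental cells, at a log2 fold change of 3.94 ± 0.36 (SE, limma adjusted p = 3.78e-06). CDH10 fell (113 ± 4.18 normalized counts in resistant 1, 743 ± 119 in resistant 2 and 3433 ± 253 in parental cells). For CDH10 the log2 fold change over parental cells was -4.91 ± 0.14 (SE, limma adjusted p = 5.05e-10). ESRP1, an epithelial splicing regulator, was lower at 11.9 ± 2.22 in resistant 1 and 105 ± 42.9 in parental cells, and the intermediate filament vimentin (VIM) was higher at 245421 ± 15943 in resistant 1 and 148051 ± 7733 in parental cells. ESRP1 was lower than in parental cells, at a log2 fold change of -2.97 ± 0.41 (SE, limma adjusted p = 9.48e-05). VIM was above parental cells, at a log2 fold change of 0.73 ± 0.09 (SE, limma adjusted p = 3.36e-05).

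Of the keratins, 6 of 13 tested members were called higher and 5 lower; 42 of 55 did not pass the filter. KRT19, a keratin of simple epithelia, had 153913, 174951 and 236465 normalized counts in resistant 1, 22171, 28947 and 41960.3 in resistant 2 and 86574, 96240.3 and 70896 in parental cells, and KRT15, a basal keratin, 4839, 4622 and 4239 in resistant 1, 1014, 576 and 651 in resistant 2 and 765, 1184 and 833 in parental cells. For KRT19 the log2 fold change over parental cells was 1.14 ± 0.22 (SE, limma adjusted p = 0.00112). KRT15 was higher than in parental cells, at a log2 fold change of 2.32 ± 0.21 (SE, limma adjusted p = 4.28e-06). The hair keratin KRT34 averaged 343 ± 137 normalized counts in resistant 1, 18.1 ± 5.04 in resistant 2 and 11.5 ± 2.47 in parental cells. KRT34 was above parental cells, at a log2 fold change of 4.73 ± 0.33 (SE, limma adjusted p = 4.80e-07). KRT81, whose neighbours are near-identical, fell to 364 ± 176 in resistant 1 and stood at 102249 ± 21870 in resistant 2 and 1923 ± 486 in parental cells. For KRT81 the log2 fold change over parental cells was -2.47 ± 0.30 (SE, limma adjusted p = 4.16e-05). Of the claudin and desmosome genes, 8 of 27 tested members were called higher and 10 lower. That is 29.6% and 37.0%, against 29.3% and 26.6% of all genes. The tight junction protein CLDN4 had 5788, 6436 and 9218 normalized counts in resistant 1, 33.9, 33 and 52.1 in resistant 2 and 2534, 2347 and 1319 in parental cells. CLDN4 was higher than in parental cells, at a log2 fold change of 1.82 ± 0.27 (SE, limma adjusted p = 1.79e-04), and over resistant 2 the log2 fold change was 7.46 ± 0.27 (SE, limma adjusted p = 3.82e-09). CLDN7 fell (90.3 ± 5.29 normalized counts in resistant 1, 19 ± 7.38 in resistant 2 and 628 ± 86 in parental cells). CLDN7 was below parental cells, at a log2 fold change of -2.78 ± 0.28 (SE, limma adjusted p = 8.64e-06). Of the Eph receptors and ephrins, which signal between touching cells, 8 of 19 tested members were called higher and 5 lower: EPHA3 averaged 3.62 ± 3.28 normalized counts in resistant 1, 23.4 ± 11.8 in resistant 2 and 2684 ± 370.1 in parental cells, EPHA5 240.4 ± 56.8 in resistant 1, 3839 ± 263 in resistant 2 and 7094 ± 1047 in parental cells and EPHB1 858 ± 24.6 in resistant 1, 2469 ± 249 in resistant 2 and 60.8 ± 12.1 in parental cells. For EPHA3 the log2 fold change over parental cells was -9.42 ± 0.47 (SE, limma adjusted p = 3.39e-08). EPHA5 was lower than in parental cells, at a log2 fold change of -4.90 ± 0.18 (SE, limma adjusted p = 2.67e-09). EPHB1 was above parental cells, at a log2 fold change of 3.82 ± 0.16 (SE, limma adjusted p = 8.49e-09).

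Ligands and receptors of growth signalling were among the genes that rose. Of the EGF family ligands, 6 of 10 tested members were called higher and 1 lower. Epiregulin (EREG) had 1747, 2342 and 2432 normalized counts in resistant 1, 111, 40.5 and 44.5 in resistant 2 and 96.5, 116 and 166 in parental cells, and neuregulin 1 (NRG1), the ligand of ERBB3 and ERBB4, 17151, 19352 and 19598 in resistant 1, 3162, 3560.4 and 3788 in resistant 2 and 3217, 3041 and 3409 in parental cells. For EREG the log2 fold change over parental cells was 4.12 ± 0.35 (SE, limma adjusted p = 2.28e-06), and over resistant 2 it was 5.17 ± 0.35 (SE, limma adjusted p = 4.04e-07). NRG1 was higher than in parental cells, at a log2 fold change of 2.54 ± 0.10 (SE, limma adjusted p = 4.55e-09). NRG4 fell (215 ± 44.3 normalized counts in resistant 1, 517 ± 226 in resistant 2 and 2344 ± 198 in parental cells). NRG4 lay below the parental range in all 3 resistant 1 libraries (log2 fold change -3.46 ± 0.28, SE; limma adjusted p = 1.53e-06). TGFA rose to 920.0 ± 108 in resistant 1 against 68.1 ± 22.9 in parental cells, far under the 213200.1 ± 16565 of resistant 2. For TGFA the log2 fold change over parental cells was 3.78 ± 0.20 (SE, limma adjusted p = 5.93e-08). Of the growth factor receptor kinases, 16 of 30 tested members were called higher and 7 lower (median 0.68). AXL, a receptor of GAS6, had 15394, 17014 and 17119 normalized counts in resistant 1, 13215, 10117 and 8603 in resistant 2 and 1415, 1441 and 1502 in parental cells, and the receptor of EGF (EGFR) 31729, 30332 and 28342 in resistant 1, 13751, 14772 and 12886 in resistant 2 and 12762, 12193 and 14929.7 in parental cells. AXL was higher than in parental cells, at a log2 fold change of 3.50 ± 0.14 (SE, limma adjusted p = 4.55e-09). EGFR was above parental cells, at a log2 fold change of 1.18 ± 0.10 (SE, limma adjusted p = 1.73e-06). NTRK3, the receptor of neurotrophin 3, stood at 146 ± 31.4 normalized counts in resistant 1, 41987 ± 4959 in resistant 2 and 1.63 ± 2.05 in parental cells. MET rose by less, with 35886 ± 1609 in resistant 1 and 26843 ± 2878 in parental cells. For MET the log2 fold change over parental cells was 0.42 ± 0.13 (SE, limma adjusted p = 0.0182). MET was not called without resistant 1 replicate 2, resistant 1 replicate 3, parental replicate 1 or parental replicate 2 (largest limma adjusted p = 0.0692).

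Downstream genes were mixed. Of the feedback and target genes of ERK, the kinase at the end of the RAS cascade, 11 of 24 tested members were called higher and 6 lower. The ERK phosphatase DUSP5 had 51332, 66661 and 54724 normalized counts in resistant 1, 6307, 4018 and 2323 in resistant 2 and 5391, 14039.7 and 15889 in parental cells, whereas the early response factor EGR1 had 937, 1271 and 1372 in resistant 1 and 2155, 15832 and 7369 in parental cells and DUSP2 averaged 174 ± 35.1 in resistant 1 and 664 ± 124 in parental cells. DUSP5 was higher than in parental cells, at a log2 fold change of 2.43 ± 0.40 (SE, limma adjusted p = 3.85e-04), and over resistant 2 the log2 fold change was 3.88 ± 0.40 (SE, limma adjusted p = 1.24e-05). EGR1 lay below the parental range in all 3 resistant 1 libraries (log2 fold change -2.42 ± 0.59, SE; limma adjusted p = 0.00478). For EGR1 the value over parental cells was -3.20 without parental replicate 1 and -1.76 without parental replicate 2. For DUSP2 the log2 fold change over parental cells was -1.93 ± 0.22 (SE, limma adjusted p = 2.25e-05). MYC, a driver of growth, fell to 13393, 15441 and 15137 in resistant 1 against 43772, 55272 and 41629 in parental cells, and the proliferation marker MKI67 to 25741, 23971 and 21063 against 64793, 55095 and 56738. MYC was lower than in parental cells, at a log2 fold change of -1.67 ± 0.12 (SE, limma adjusted p = 4.92e-07). MKI67 was below parental cells, at a log2 fold change of -1.32 ± 0.14 (SE, limma adjusted p = 1.25e-05). The cell cycle inhibitor p21 (CDKN1A) rose, with 66307, 64649 and 73416 normalized counts in resistant 1 and 4254, 5435 and 5461 in parental cells, and the cyclin CCNA2 fell (5023 ± 178 in resistant 1 and 14308 ± 1243 in parental cells). For CDKN1A the log2 fold change over parental cells was 3.76 ± 0.14 (SE, limma adjusted p = 3.15e-09). CCNA2 was lower than in parental cells, at a log2 fold change of -1.51 ± 0.12 (SE, limma adjusted p = 1.78e-06). Its germ cell relative CCNA1 rose and stood above both other populations (950.4 ± 58 normalized counts in resistant 1, 87.1 ± 27.1 in resistant 2 and 110.1 ± 36.7 in parental cells). CCNA1 was above parental cells, at a log2 fold change of 3.16 ± 0.29 (SE, limma adjusted p = 4.06e-06). For MKI67 resistant 1 lay between the other populations, since resistant 2 averaged 9354 ± 1918.

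Of the 45 tested WNT pathway genes, 16 (35.6%) were called higher and 14 (31.1%) lower, against 29.3% and 26.6% of all genes. Above both other populations stood 7 (15.6%) and below both 12 (26.7%), against 12.4% and 9.55% of all genes. The ligand WNT7B had 1172, 1158 and 1477 normalized counts in resistant 1, 76, 49 and 83.6 in resistant 2 and 9.85, 8.62 and 10.8 in parental cells. For WNT7B the log2 fold change over parental cells was 6.88 ± 0.23 (SE, limma adjusted p = 1.71e-09), and over resistant 2 it was 4.20 ± 0.23 (SE, limma adjusted p = 8.94e-08). The receptor LGR5, a stem cell marker of the gut that binds R-spondins, had 984, 1077 and 1089 normalized counts in resistant 1, 18.5, 65 and 74.9 in resistant 2 and 37.4, 34.5 and 44.4 in parental cells, and LGR6 averaged 269 ± 37.4 in resistant 1, 27.8 ± 16.8 in resistant 2 and 36.2 ± 5.36 in parental cells. LGR5 was higher than in parental cells, at a log2 fold change of 4.73 ± 0.42 (SE, limma adjusted p = 3.04e-06). LGR6 was above parental cells, at a log2 fold change of 2.86 ± 0.38 (SE, limma adjusted p = 7.26e-05). The secreted antagonist DKK1 had 15981, 17002 and 20442 normalized counts in resistant 1, 1682, 1479 and 2075 in resistant 2 and 834, 983 and 1112 in parental cells. For DKK1 the log2 fold change over parental cells was 4.19 ± 0.15 (SE, limma adjusted p = 2.79e-09). In all 4 the resistant 1 libraries lay above the other 6. Of the genes of the YAP and TEAD transcription factors, 11 of 26 tested members were called higher and 6 lower: ANKRD1 averaged 27789 ± 5676 normalized counts in resistant 1, 49280.5 ± 16022 in resistant 2 and 946 ± 358 in parental cells and CRIM1 118795 ± 1883 in resistant 1, 97276 ± 8027 in resistant 2 and 25062 ± 2694 in parental cells. ANKRD1 was higher than in parental cells, at a log2 fold change of 4.92 ± 0.29 (SE, limma adjusted p = 1.47e-07). CRIM1 was above parental cells, at a log2 fold change of 2.25 ± 0.09 (SE, limma adjusted p = 8.12e-09). Of the TGF-beta and BMP genes, 22 of 44 tested members were called higher and 13 lower. GDF15, a stress-induced hormone, rose (38209 ± 10716 normalized counts in resistant 1, 21862 ± 10532 in resistant 2 and 2659 ± 1037 in parental cells), and BMP5 fell (44.1 ± 13.1 in resistant 1, 15.2 ± 1.9 in resistant 2 and 771 ± 211 in parental cells). For GDF15 the log2 fold change over parental cells was 3.88 ± 0.34 (SE, limma adjusted p = 2.70e-06). BMP5 was lower than in parental cells, at a log2 fold change of -4.11 ± 0.27 (SE, limma adjusted p = 3.36e-07).

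Of the FGF and PDGF ligands, 6 of 24 tested members were called higher and 9 lower. FGF1 had 105, 106 and 148 normalized counts in resistant 1, 7.19, 12.8 and 3.26 in resistant 2 and 0.985, 4.79 and 6.49 in parental cells, and FGF13, an intracellular member that binds sodium channels, 765, 826 and 762 in resistant 1, 5703, 5670 and 4872 in resistant 2 and 5034, 4394 and 5003 in parental cells. FGF1 lay above the parental range in all 3 resistant 1 libraries (log2 fold change 4.75 ± 0.53, SE; limma adjusted p = 1.97e-05). For FGF13 the log2 fold change over parental cells was -2.61 ± 0.10 (SE, limma adjusted p = 5.04e-09). FGF14, its relative, was low in both resistant populations (113 ± 32.5 normalized counts in resistant 1, 74 ± 11.7 in resistant 2 and 1642 ± 249 in parental cells). FGF14 was lower than in parental cells, at a log2 fold change of -3.89 ± 0.23 (SE, limma adjusted p = 1.53e-07). Of the axon guidance genes, 25 of 47 tested members were called higher and 10 lower (median 0.42). SEMA5A, a membrane semaphorin, had 35662, 33812 and 33175 normalized counts in resistant 1, 18026, 15916 and 14123 in resistant 2 and 1263, 866 and 1056 in parental cells, above every other library, whereas the secreted SLIT3 (462 ± 28.7 in resistant 1, 48887 ± 6495 in resistant 2 and 1.61 ± 1.47 in parental cells) was far higher in resistant 2. SEMA5A lay above the parental range in all 3 resistant 1 libraries (log2 fold change 5.03 ± 0.14, SE; limma adjusted p = 3.33e-10). For SLIT3 the log2 fold change over parental cells was 7.68 ± 0.39 (SE, limma adjusted p = 3.65e-08). For SLIT3 the value over parental cells was 7.09 without parental replicate 3. Of the genes of migration and actin, 15 of 39 tested members were called higher and 7 lower. The tropomyosins parted: TPM1 averaged 23003 ± 409 normalized counts in resistant 1, 15631 ± 2343 in resistant 2 and 4541 ± 259.7 in parental cells and TPM2 864 ± 65.7 in resistant 1, 16119.8 ± 2544 in resistant 2 and 4054 ± 628 in parental cells. TPM1 was higher than in parental cells, at a log2 fold change of 2.34 ± 0.11 (SE, limma adjusted p = 1.73e-08). TPM2 was below parental cells, at a log2 fold change of -2.22 ± 0.14 (SE, limma adjusted p = 2.40e-07). Of the lung and airway lineage factors, 6 of 15 tested members were called higher and 4 lower, led by SOX9, a factor of the distal airway bud, with 21099, 20389.6 and 19738 normalized counts in resistant 1, 15302, 15216 and 16329 in resistant 2 and 4438, 4857 and 5222 in parental cells. For SOX9 the log2 fold change over parental cells was 2.08 ± 0.08 (SE, limma adjusted p = 6.25e-09). NKX2-1, the lung lineage factor of adenocarcinoma, stayed low (18 ± 8.77 normalized counts in resistant 1, 88.1 ± 47.8 in resistant 2 and 5.98 ± 1.79 in parental cells). NKX2-1 was higher than in parental cells, at a log2 fold change of 1.36 ± 0.47 (SE, limma adjusted p = 0.0298). NKX2-1 was not called without resistant 1 replicate 2, resistant 1 replicate 3, parental replicate 2 or parental replicate 3, and likewise with a pseudocount of 5 or quantile normalization (largest limma adjusted p = 0.18).

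Most genes of antigen presentation rose. Of the HLA class I genes, which show peptides to CD8 T cells, 10 of 16 tested members were called higher and 1 lower (median 0.64); their reads may be split between near-identical genes and alleles. HLA-B had 14062, 13242 and 13483 normalized counts in resistant 1, 21047, 15107 and 15079 in resistant 2 and 1989, 1914 and 2023 in parental cells. HLA-B lay above the parental range in all 3 resistant 1 libraries (log2 fold change 2.78 ± 0.12, SE; limma adjusted p = 1.17e-08). Resistant 2 was high as well, and the log2 fold changes over it were -0.31 for HLA-B, -0.53 for HLA-C, 0.19 for HLA-E and 0.09 for HLA-F. HLA-C alone of these was called, below resistant 2 (limma adjusted p = 0.018). These calls shifted with the libraries and the fit. HLA-C was not called without resistant 1 replicate 1, resistant 1 replicate 2 or resistant 2 replicate 1 (largest limma adjusted p = 0.0696). HLA-B was called below resistant 2 without resistant 2 replicate 2 or resistant 2 replicate 3, and likewise with a pseudocount of 5, a filter at 50, edgeR or DESeq2 (largest adjusted p = 0.0492). HLA-E was called above resistant 2 without resistant 2 replicate 1 (largest limma adjusted p = 0.0197). Of the HLA class II genes, 7 of 8 were called higher and 1 lower, against 29.3% and 26.6% of all genes, and 4 stood above both other populations. Since 2 of the 8 reached the filter through resistant 1 alone, these counts are partly set by it. HLA-DPA1 averaged 202 ± 9.82 normalized counts in resistant 1, 34.6 ± 5.2 in resistant 2 and 4.32 ± 0.931 in parental cells, and HLA-DRB1 232 ± 37.7 in resistant 1, 25.1 ± 3.35 in resistant 2 and 74.8 ± 34.8 in parental cells. For HLA-DPA1 the log2 fold change over parental cells was 5.27 ± 0.24 (SE, limma adjusted p = 1.53e-08). HLA-DRB1 was higher than in parental cells, at a log2 fold change of 1.70 ± 0.30 (SE, limma adjusted p = 5.62e-04). Of the 16 immune markers, 7 were tested, of which 5 were called higher and 1 lower (median log2 fold change 1.17). LYZ, CD68, FCER1G, ITGAM and CSF1R were the ones called higher, with means of 19.5 to 42.9 in resistant 1 and 5.0 to 23 in parental cells. CD14, the leading immune marker in both populations, was the one called lower (96.4 ± 31.4 in resistant 1 and 312 ± 124 in parental cells). CD14 lay below the parental range in all 3 resistant 1 libraries (log2 fold change -1.64 ± 0.47, SE; limma adjusted p = 0.0123). CD14 was not called without parental replicate 1 or parental replicate 2 (largest limma adjusted p = 0.0545).

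Interferon-stimulated genes went both ways: 18 of 43 tested members were called higher and 11 lower. IFI44L had 45.1, 38.2 and 28 normalized counts in resistant 1, 1411, 1418 and 1386 in resistant 2 and 2839, 2405 and 2941 in parental cells, and its neighbour IFI44 214, 207 and 141 in resistant 1, 3121, 2823 and 2573 in resistant 2 and 4317, 3475 and 3948 in parental cells. For IFI44L the log2 fold change over parental cells was -6.18 ± 0.17 (SE, limma adjusted p = 4.10e-10), and over resistant 2 it was -5.23 ± 0.17 (SE, limma adjusted p = 1.87e-09). IFI44 was lower than in parental cells, at a log2 fold change of -4.40 ± 0.17 (SE, limma adjusted p = 3.88e-09). Both were below all other libraries. TRIM22, an antiviral ubiquitin ligase, rose (1096 ± 38.5 normalized counts in resistant 1, 7532 ± 671 in resistant 2 and 119 ± 13.2 in parental cells), as did OASL (93.9 ± 27.2 in resistant 1 and 12.1 ± 0.343 in parental cells). TRIM22 lay above the parental range in all 3 resistant 1 libraries (log2 fold change 3.20 ± 0.12, SE; limma adjusted p = 3.95e-09). For OASL the log2 fold change over parental cells was 2.82 ± 0.28 (SE, limma adjusted p = 8.01e-06). Of the cytokines and chemokines, 18 of 31 tested members were called higher and 4 lower (median 1.16), and of the cytokine receptors, 22 of 38 tested members were called higher and 10 lower. IL24 averaged 255 ± 68.1 normalized counts in resistant 1, 83.8 ± 36.5 in resistant 2 and 3 reads in all in parental cells and TNFSF15 504 ± 65.6 in resistant 1, 1261 ± 96 in resistant 2 and 3.89 ± 4.12 in parental cells, while oncostatin M (OSM) fell (4.53 ± 2.58 in resistant 1 and 292 ± 126 in parental cells). IL24 was called higher than in parental cells (limma adjusted p = 5.16e-07). TNFSF15 was higher than in parental cells, at a log2 fold change of 7.01 ± 0.44 (SE, limma adjusted p = 2.11e-07). For TNFSF15 the value over parental cells was 7.66 without parental replicate 2. OSM lay below the parental range in all 3 resistant 1 libraries (log2 fold change -5.77 ± 0.46, SE; limma adjusted p = 1.48e-06). The receptor chains IL31RA (269 ± 22.7 normalized counts in resistant 1, 66.3 ± 27.5 in resistant 2 and 2.04 ± 1.78 in parental cells) and IL2RG (118 ± 66.8 in resistant 1, 38.3 ± 10.2 in resistant 2 and 3.02 ± 0.197 in parental cells) stood above both other populations. For IL31RA the log2 fold change over parental cells was 6.73 ± 0.50 (SE, limma adjusted p = 8.29e-07). For IL31RA the value over parental cells was 6.05 without parental replicate 1. IL2RG was higher than in parental cells, at a log2 fold change of 4.75 ± 0.37 (SE, limma adjusted p = 1.06e-06). Of the complement genes, 9 of 18 tested members were called higher and 5 lower, and 4 stood above and 5 below both others. Complement C5 had 3954, 3756 and 4528 normalized counts in resistant 1, 649, 765 and 571 in resistant 2 and 138, 123 and 132 in parental cells, and the receptor of its fragment, C5AR1, 154, 207 and 201 in resistant 1, 344, 359 and 308 in resistant 2 and 2688, 3643 and 3503 in parental cells. C5 lay above the parental range in all 3 resistant 1 libraries (log2 fold change 4.95 ± 0.14, SE; limma adjusted p = 4.48e-10). For C5AR1 the log2 fold change over parental cells was -4.12 ± 0.16 (SE, limma adjusted p = 5.71e-09).

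Most genes of the amino acid stress response fell in resistant 1. ATF4 is a transcription factor whose translation rises when amino acids are short, and its targets make and import amino acids. Of the list, 1 of 26 tested members was called higher and 18 lower (median log2 fold change -0.76), and 14 of the 26 stood below both (53.8%, against 9.55% of all genes). The pseudokinase TRIB3 had 12492, 14425 and 12074 normalized counts in resistant 1, 41609, 26440 and 18421 in resistant 2 and 37822, 44572 and 41985 in parental cells. TRIB3 was lower than in parental cells, at a log2 fold change of -1.67 ± 0.23 (SE, limma adjusted p = 8.35e-05), and over resistant 2 the log2 fold change was -1.07 ± 0.23 (SE, limma adjusted p = 0.00207). SLC7A5, the carrier of large neutral amino acids, had 22841, 26776 and 30016 normalized counts in resistant 1, 73470.4, 55491 and 63797 in resistant 2 and 81478, 92303 and 62499 in parental cells. SLC7A5 lay below the parental range in all 3 resistant 1 libraries (log2 fold change -1.56 ± 0.16, SE; limma adjusted p = 8.29e-06). Cystathionine beta-synthase (CBS), which makes cystathionine from homocysteine, had 281, 358 and 289.7 normalized counts in resistant 1, 917, 774 and 723 in resistant 2 and 939, 1097 and 790.2 in parental cells. For CBS the log2 fold change over parental cells was -1.60 ± 0.16 (SE, limma adjusted p = 9.79e-06). All 3 lay below each of the other 6 libraries. Stanniocalcin 2 (STC2), a secreted hormone, was the 1 member called higher (103453 ± 19101 normalized counts in resistant 1, 49352 ± 9639 in resistant 2 and 30779 ± 2437 in parental cells). STC2 was higher than in parental cells, at a log2 fold change of 1.73 ± 0.16 (SE, limma adjusted p = 3.68e-06). INHBE, an activin chain, stood at 13.1 ± 3.67 normalized counts in resistant 1, 221 ± 68.5 in resistant 2 and 274 ± 40.7 in parental cells. INHBE was below parental cells, at a log2 fold change of -4.31 ± 0.28 (SE, limma adjusted p = 2.94e-07).

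Most genes of sterol synthesis fell as well, with resistant 2 lower still at the median. Of the sterol genes, 4 of 26 tested members were called higher and 17 lower (median -0.75 against parental cells and 0.59 against resistant 2). INSIG1, the sensor that holds back sterol synthesis, had 2833, 3116 and 2821 normalized counts in resistant 1, 648, 497 and 554 in resistant 2 and 10545, 9944 and 9645 in parental cells. For INSIG1 the log2 fold change over parental cells was -1.78 ± 0.11 (SE, limma adjusted p = 2.09e-07). The isomerase IDI1 (4495 ± 349 in resistant 1 and 13833 ± 1024 in parental cells) and the farnesyl diphosphate synthase FDPS (14129.9 ± 238 in resistant 1 and 36005 ± 2015 in parental cells) of the mevalonate pathway were lower, and the sterol reductase TM7SF2 was higher (792 ± 95.9 in resistant 1 and 253 ± 86.5 in parental cells). IDI1 was lower than in parental cells, at a log2 fold change of -1.62 ± 0.09 (SE, limma adjusted p = 1.10e-07). FDPS was below parental cells, at a log2 fold change of -1.35 ± 0.09 (SE, limma adjusted p = 2.25e-07). For TM7SF2 the log2 fold change over parental cells was 1.70 ± 0.24 (SE, limma adjusted p = 1.15e-04). Of the fatty acid genes, 6 of 19 tested members were called higher and 10 lower. The desaturases FADS2 (1015, 932 and 1005 normalized counts in resistant 1, 784, 721 and 752 in resistant 2 and 24932, 19829 and 15191 in parental cells) and SCD (66648, 70175 and 61564 in resistant 1, 35641, 32523 and 30558 in resistant 2 and 324914, 309252 and 330698 in parental cells) fell. FADS2 was lower than in parental cells, at a log2 fold change of -4.31 ± 0.15 (SE, limma adjusted p = 2.39e-09). SCD lay below the parental range in all 3 resistant 1 libraries (log2 fold change -2.28 ± 0.09, SE; limma adjusted p = 3.51e-09). FADS1, the delta-5 desaturase, averaged 14926 ± 1376 in resistant 1 and 50813 ± 3409.6 in parental cells. For FADS1 the log2 fold change over parental cells was -1.77 ± 0.09 (SE, limma adjusted p = 3.42e-08). The elongase ELOVL7 ran against them, with 6829, 7352 and 6231 normalized counts in resistant 1, 1599, 1504 and 1177 in resistant 2 and 231, 202 and 247 in parental cells. ELOVL7 was higher than in parental cells, at a log2 fold change of 4.90 ± 0.14 (SE, limma adjusted p = 4.70e-10), and over resistant 2 the log2 fold change was 2.26 ± 0.14 (SE, limma adjusted p = 1.97e-07).

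**Figure D5:**
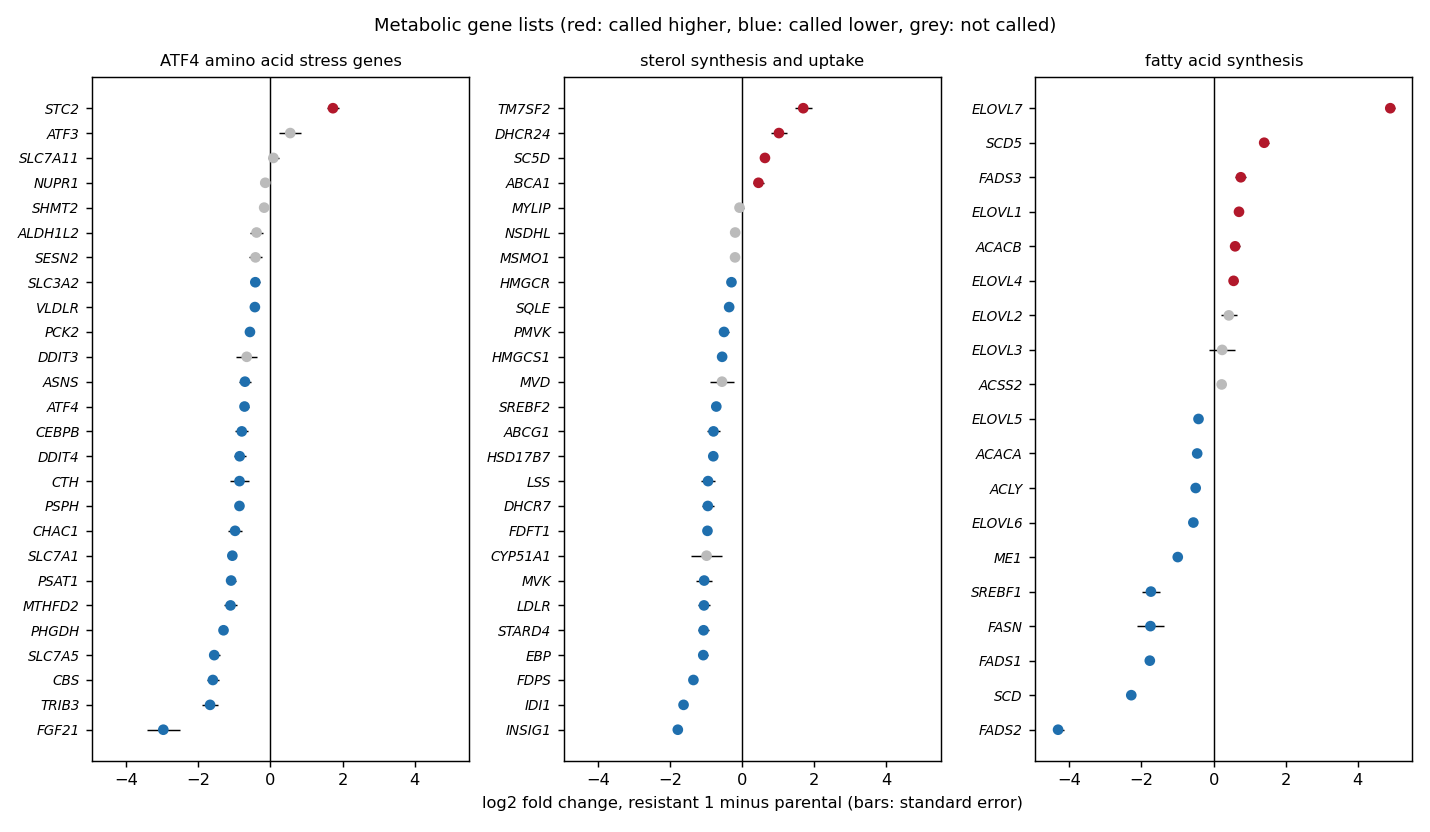
Log2 fold changes of resistant 1 over parental cells (horizontal axis, with bars of 1 standard error) for every tested member of the ATF4, sterol and fatty acid lists; red and blue points were called higher and lower, grey ones were not called. Most ATF4 and sterol genes lie left of 0, the lowest sterol gene is INSIG1 at -1.78, and the fatty acid genes span -4.31 (FADS2) to 4.90 (ELOVL7).

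The NRF2 response guards against oxidants, and 7 of 37 tested members were called higher and 21 lower (median -0.34), with 12 below both other populations. The aldo-keto reductase AKR1C2, whose relatives are near-identical, had 5163, 4943 and 5629 normalized counts in resistant 1, 105504, 112965 and 92093 in resistant 2 and 64523, 63303 and 77900.3 in parental cells, and AKR1C3 had 16209, 15805 and 14875 in resistant 1, 120229.9, 115152 and 107003 in resistant 2 and 57159, 55206 and 65037 in parental cells. AKR1C2 lay below the parental range in all 3 resistant 1 libraries (log2 fold change -3.70 ± 0.11, SE; limma adjusted p = 5.43e-10). For AKR1C3 the log2 fold change over parental cells was -1.92 ± 0.09 (SE, limma adjusted p = 1.53e-08). TRIM16L averaged 12688 ± 402 normalized counts in resistant 1, 31633 ± 6800 in resistant 2 and 40663 ± 2337 in parental cells and OSGIN1 5665 ± 1790 in resistant 1 and 14220.3 ± 4557 in parental cells. TRIM16L was lower than in parental cells, at a log2 fold change of -1.68 ± 0.14 (SE, limma adjusted p = 1.75e-06). OSGIN1 lay below the parental range in all 3 resistant 1 libraries (log2 fold change -1.31 ± 0.31, SE; limma adjusted p = 0.00416). KEAP1, the inhibitor of NRF2, was itself lower (6280.1 ± 824 in resistant 1 and 8968 ± 1414 in parental cells). For KEAP1 the log2 fold change over parental cells was -0.51 ± 0.14 (SE, limma adjusted p = 0.00992). Of the cytosolic ribosomal protein genes, 2 of 80 tested members were called higher and 44 lower (median -0.31), small shifts in abundant messages such as RPS29 (33145 ± 2284 in resistant 1 and 55202 ± 2736 in parental cells). RPS29 was lower than in parental cells, at a log2 fold change of -0.74 ± 0.08 (SE, limma adjusted p = 1.60e-05). Of 30 tested hypoxia and glycolysis genes, 8 (26.7%) were called higher and 7 (23.3%) lower, less than among all genes. Carbonic anhydrase 12 (CA12), which sets extracellular pH, had 786, 825 and 791 normalized counts in resistant 1, 19487, 25944 and 17514 in resistant 2 and 16773, 14606 and 17789 in parental cells, and adrenomedullin (ADM) rose (5784 ± 1410.5 in resistant 1, 1129.9 ± 355 in resistant 2 and 786 ± 41.8 in parental cells). CA12 lay below the parental range in all 3 resistant 1 libraries (log2 fold change -4.35 ± 0.14, SE; limma adjusted p = 9.80e-10). For ADM the log2 fold change over parental cells was 2.85 ± 0.21 (SE, limma adjusted p = 7.97e-07).

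Of the 55 tested potassium channel genes, 23 (41.8%) were called higher and 18 (32.7%) lower, against 29.3% and 26.6% of all genes, and 2 of them reached the filter through resistant 1 alone. On each side of both other populations stood 10 (18.2%), against 12.4% and 9.55% of all genes. The calcium-activated channel KCNMA1 (ENSG00000156113, chromosome 10, 76869601 to 77638369) had 17757, 18086 and 18335 normalized counts in resistant 1, 1076, 724 and 713 in resistant 2 and 66, 62.2 and 67.1 in parental cells. KCNMA1 was higher than in parental cells, at a log2 fold change of 8.09 ± 0.15 (SE, limma adjusted p = 5.44e-11), and over resistant 2 the log2 fold change was 4.46 ± 0.15 (SE, limma adjusted p = 2.62e-09). KCNH1 had 8353, 8905 and 8090.1 normalized counts in resistant 1, 3667, 3607 and 3377 in resistant 2 and 7.88, 8.62 and 4.33 in parental cells. KCNH1 was above parental cells, at a log2 fold change of 10.10 ± 0.20 (SE, limma adjusted p = 6.50e-11). KCND2 averaged 110.1 ± 2.47 in resistant 1, with no read in resistant 2 and 2.71 ± 1.56 in parental cells. For KCND2 the log2 fold change over parental cells was 5.01 ± 0.37 (SE, limma adjusted p = 7.97e-07). Each of these 3 was higher in resistant 1 than in every other library.

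Of the ABC transporters, 17 of 36 tested members were called higher and 7 lower. Above both other populations stood 10 (27.8%, against 12.4% of all genes). ABCB1, the P-glycoprotein pump that exports many drugs (ENSG00000085563, chromosome 7, 87503633 to 87713323), had 12506, 13412 and 12195 normalized counts in resistant 1, 428, 680.1 and 583 in resistant 2 and 832, 797 and 898 in parental cells. ABCB1 was higher than in parental cells, at a log2 fold change of 3.91 ± 0.15 (SE, limma adjusted p = 4.69e-09), and over resistant 2 the log2 fold change was 4.52 ± 0.15 (SE, limma adjusted p = 2.20e-09). Resistant 2 was below parental cells at this gene, and the 3 resistant 1 libraries were above all others. Of the neuroendocrine genes, 8 of 16 tested members were called higher and 3 lower: the granin SCG3 had 1860.3, 1824 and 1444 normalized counts in resistant 1, 52.4, 57.6 and 66.2 in resistant 2 and 24.6, 16.3 and 23.8 in parental cells. SCG3 was above parental cells, at a log2 fold change of 6.26 ± 0.21 (SE, limma adjusted p = 1.64e-09). Of the aldehyde dehydrogenases and aldo-keto reductases, 8 of 25 tested members were called higher and 11 lower. ALDH1A2, which makes retinoic acid from retinal, averaged 206 ± 12.9 normalized counts in resistant 1, 8.9 ± 3.96 in resistant 2 and 2.84 ± 4.13 in parental cells. For ALDH1A2 the log2 fold change over parental cells was 6.33 ± 0.64 (SE, limma adjusted p = 8.98e-06). For ALDH1A2 the value over parental cells was 5.66 without parental replicate 1 and 7.21 without parental replicate 3.

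Genes that handle the drugs were called in part. DNMT1, the maintenance methyltransferase that decitabine traps, had 10106, 9886 and 10687 normalized counts in resistant 1, 5997, 6610.3 and 8968 in resistant 2 and 29198, 28378 and 24516 in parental cells. DNMT1 was lower than in parental cells, at a log2 fold change of -1.42 ± 0.14 (SE, limma adjusted p = 6.17e-06). Deoxycytidine kinase (DCK), which activates decitabine, had 3542, 3886 and 3260.4 normalized counts in resistant 1 and 3993, 3268 and 4045 in parental cells, a difference that was not called (log2 fold change -0.08 ± 0.11 (SE), limma adjusted p = 0.591). The nucleoside carrier SLC29A1 was lower (3435 ± 259 normalized counts in resistant 1, 744 ± 396 in resistant 2 and 7557 ± 684 in parental cells), and cytidine deaminase (CDA), which inactivates decitabine, was higher at a low level (79.8 ± 10.0 in resistant 1, 13.8 ± 2.31 in resistant 2 and 43 ± 14.9 in parental cells). SLC29A1 was below parental cells, at a log2 fold change of -1.14 ± 0.29 (SE, limma adjusted p = 0.0059). For CDA the log2 fold change over parental cells was 0.92 ± 0.28 (SE, limma adjusted p = 0.015). CDA was not called without resistant 1 replicate 3, parental replicate 2 or parental replicate 3, and likewise with quantile normalization (largest limma adjusted p = 0.0719). Of the retinoic acid receptors, RARA was called lower by a narrow margin (1555 ± 134 in resistant 1 and 2112 ± 490.2 in parental cells), while RARB and RARG were not called (log2 fold changes -0.14 ± 0.15 and 0.24 ± 0.13, limma adjusted p = 0.436 and 0.139). RARA was lower than in parental cells, at a log2 fold change of -0.42 ± 0.16 (SE, limma adjusted p = 0.0445). RARA was not called without resistant 1 replicate 1, resistant 1 replicate 2, parental replicate 1, parental replicate 2 or resistant 2 replicate 2, and likewise with only the 6 compared libraries in the fit, no filter, the replicate block or no trend in limma (largest limma adjusted p = 0.176). Of the retinoic acid target genes, 4 of 15 tested members were called higher and 4 lower (26.7% each, near the shares of all genes). CYP26B1, an enzyme that breaks retinoic acid down, averaged 78.6 ± 19.6 normalized counts in resistant 1, 447 ± 87.3 in resistant 2 and 344 ± 57.2 in parental cells. CYP26B1 was below parental cells, at a log2 fold change of -2.13 ± 0.22 (SE, limma adjusted p = 1.19e-05). SMARCA4, a chromatin remodelling ATPase, was not called either (log2 fold change -0.23 ± 0.15, limma adjusted p = 0.224). Without parental replicate 3 it was called (limma adjusted p = 0.0232).

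Of the BCL2 family, which sets the threshold of apoptosis, 7 of 19 tested (36.8%) were called higher and 4 (21.1%) lower. BCL2 itself had 1895, 2123 and 2005 normalized counts in resistant 1, 3251, 3632 and 3270.5 in resistant 2 and 4851, 4355 and 5279 in parental cells, below every other library, while its relative BCL2L1 averaged 27962 ± 1866 in resistant 1, 30964 ± 2769.8 in resistant 2 and 12254 ± 2181 in parental cells and the death-promoting BMF 389.7 ± 57.2 in resistant 1, 413 ± 143 in resistant 2 and 25.6 ± 4.89 in parental cells. For BCL2 the log2 fold change over parental cells was -1.26 ± 0.10 (SE, limma adjusted p = 1.53e-06). BCL2L1 was higher than in parental cells, at a log2 fold change of 1.20 ± 0.13 (SE, limma adjusted p = 1.40e-05). BMF was above parental cells, at a log2 fold change of 3.89 ± 0.25 (SE, limma adjusted p = 2.71e-07). For BCL2L1 and BMF resistant 1 did not stand apart from resistant 2. Of the genes of the unfolded protein response, 3 of 18 tested members were called higher and 6 lower; the factor XBP1 fell (12712 ± 1265 normalized counts in resistant 1, 20696 ± 4597 in resistant 2 and 19403 ± 2015 in parental cells). For XBP1 the log2 fold change over parental cells was -0.61 ± 0.15 (SE, limma adjusted p = 0.00536). Of the immediate early genes, 4 of 21 tested members were called higher and 7 lower, with FOSB higher (210.1 ± 141 in resistant 1 and 31.8 ± 2.24 in parental cells) and NR4A2 lower (1114 ± 185 in resistant 1 and 3557 ± 664 in parental cells). FOSB was higher than in parental cells, at a log2 fold change of 2.50 ± 0.43 (SE, limma adjusted p = 4.93e-04). NR4A2 lay below the parental range in all 3 resistant 1 libraries (log2 fold change -1.67 ± 0.21, SE; limma adjusted p = 5.40e-05). Around CDKN2A on chromosome 9, 2 of 7 tested members were called higher and 3 lower: MTAP, the methylthioadenosine phosphorylase next to CDKN2A, had 7976, 8863 and 7419.9 normalized counts in resistant 1, 17236, 15177 and 12681 in resistant 2 and 14445, 13971 and 16952 in parental cells, and MLLT3 averaged 4563 ± 290.1 in resistant 1, 2942 ± 152 in resistant 2 and 2877 ± 260.2 in parental cells. For MTAP the log2 fold change over parental cells was -0.90 ± 0.12 (SE, limma adjusted p = 9.91e-05). MLLT3 was higher than in parental cells, at a log2 fold change of 0.67 ± 0.10 (SE, limma adjusted p = 1.76e-04). MTAP was below and MLLT3 above all other libraries.

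Imprinted genes, which are expressed from the copy of 1 parent, were called higher in 10 of 27 (37%) and lower in 7 (25.9%), near the 29.3% and 26.6% of all genes. PEG3 had 118, 141 and 91.7 in resistant 1 and no read in the other 6 libraries. PEG3 was at least 38.7-fold higher than in parental cells (limma adjusted p = 1.51e-08). NDN, of the Prader-Willi region of chromosome 15, had 1171, 1103 and 1348 normalized counts in resistant 1, 2.05, 4.26 and 8.69 in resistant 2 and 94.5, 87.1 and 82.3 in parental cells, and its neighbour MKRN3 averaged 339 ± 17.2 in resistant 1, 154 ± 45.4 in resistant 2 and 3.32 ± 1.43 in parental cells. NDN was above parental cells, at a log2 fold change of 3.76 ± 0.34 (SE, limma adjusted p = 4.17e-06). For MKRN3 the log2 fold change over parental cells was 6.35 ± 0.30 (SE, limma adjusted p = 1.92e-08). Of the HOX genes, which pattern the body axis, 13 of 31 tested members were called higher and 8 lower. HOXA11 fell to 60.8, 50.0 and 53.1 in resistant 1, with 748, 671 and 610.2 in resistant 2 and 613, 540.1 and 540.1 in parental cells, and HOXC13 rose (2979 ± 109 normalized counts in resistant 1, 3672 ± 439.7 in resistant 2 and 408 ± 21.3 in parental cells). HOXA11 was lower than in parental cells, at a log2 fold change of -3.35 ± 0.15 (SE, limma adjusted p = 1.53e-08). HOXC13 was above parental cells, at a log2 fold change of 2.86 ± 0.11 (SE, limma adjusted p = 4.53e-09). Of the clustered protocadherins of chromosome 5, 17 of 43 tested members were called higher and 11 lower (median 0.25, which turns to -0.08 under quantile normalization). PCDHB5 averaged 289.7 ± 0.334 normalized counts in resistant 1, 14.9 ± 5.69 in resistant 2 and 7.64 ± 2.22 in parental cells and PCDHA13 17.2 ± 3.66 in resistant 1, 102 ± 10.9 in resistant 2 and 162 ± 15.4 in parental cells. For PCDHB5 the log2 fold change over parental cells was 5.11 ± 0.31 (SE, limma adjusted p = 1.65e-07). PCDHA13 was lower than in parental cells, at a log2 fold change of -3.18 ± 0.22 (SE, limma adjusted p = 4.38e-07). Of the replication-dependent histones, 14 of 28 tested members were called higher and 3 lower, and none stood above both; most of their messages lack a poly(A) tail.

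Medians over whole chromosomes stayed small. Over tested protein-coding genes they ran from -0.22 on chromosome 15 to 0.22 on the X chromosome against parental cells. On the X chromosome 245 of 565 genes (43.4%) were called higher. The other chromosomes, Y left out, ran from 23.7% on chromosome 16 to 38.8% on chromosome 20. Chromosome 15 held 172 genes below both other populations among 491, against 1608 of all 14709 protein-coding genes tested. Its median against resistant 2 was -0.94. The opposite sign was seen on chromosome 10, with a median of 0.45 against resistant 2 and 0.03 against parental cells.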

How the data were processed

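RNA of NCI-H460 cells was sequenced from TruSeq stranded mRNA libraries, per the labels' protocols. Per the submitters' processing notes, FastQC, MultiQC, STAR, featureCounts and DESeq2 were used with GRCh38 (hg38). Versions, and whether counting used strand, were not given in the sources used here, so reads of overlapping or antisense genes cannot be told apart. The authors deposited normalized counts per gene for the DMSO libraries (unit signal: read counts divided by 1 size factor per library). Every value was a whole multiple of the library's value of 1 read within 0.01 (100.0%), so reads per library could be recovered. The matching table of drug-treated libraries was not used here. Gene symbols and coordinates came from GENCODE 29, which named 57447 of 58051 gene IDs. Genes that reached 10 normalized counts in 3 or more of the 9 DMSO libraries were kept, and log2(normalized count + 1) was fitted with limma 3.58.1 (R 4.3.3, empirical Bayes with trend) over the 3 groups, with Benjamini-Hochberg adjustment over all tested genes; fold changes on this scale understate those of low genes. In simulated data with 21058 genes, 61.2% of 2-fold changes were found and 8.66% of calls were false. Replicates are labelled biological, and no 2 libraries of a group agreed within sampling noise. Alternatives were edgeR 4.0.16 and DESeq2 1.42.0 on the recovered reads, other pseudocounts, filters and scalings, the replicate number as a block and leaving out each library. The members and gene lists were chosen with earlier results of these data known. Named genes were those farthest from both other populations, the largest changes by fold and by amount, up to 4 called members per list, a set of drug and lung cancer genes, and neighbours in a row; KRT8, KRT18 and EPCAM were added for the check of the label, and HBA1 and the called immune markers beside the globin and HLA genes, after their values were seen. 4 Y-linked genes that the rule selects are not printed, and some other genes it selects are not reported here.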

Additional observations from a re-analysis of the deposited data

Results flagged for a closer look

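A closer look is due where both resistant populations were called against parental cells in opposite directions, with their difference called too in the same limma fit. Both changes use the same 3 parental libraries. Among the genes named above, 16 rose in resistant 1 and fell in resistant 2. The log2 fold changes of resistant 1 over resistant 2 were 9.55 for ZNF665, 8.87 for ZNF486, 7.81 for NDN, 7.46 for CLDN4, 7.41 for MAGEA3, 7.36 for HBE1, 6.99 for CDH12, 6.79 for KCND2, 5.17 for EREG, 4.52 for ABCB1, 4.11 for TDRD5, 3.88 for DUSP5, 3.48 for GPRC5A, 3.15 for HLA-DRB1, 2.63 for KRT19 and 2.45 for CDA. The reverse held for 12 genes, with -15.26 for CYP24A1, -10.73 for SCUBE1, -10.13 for FSTL4, -10.04 for RHOD, -8.72 for HCLS1, -8.27 for SERPINB11, -8.22 for KRT81, -6.27 for COL1A1, -4.69 for CA12, -4.30 for AKR1C2, -4.21 for TPM2 and -2.87 for AKR1C3. In CYP24A1, RHOD, CDH12, KCND2, MAGEA3, ZNF486 and ZNF665 a resistant population had at most 3 reads. There the fitted value depends on the added count of 1. From CDH12 on, parental means were low too (1.69 in ZNF665, 12.8 in ZNF486), so those falls rest on few reads.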

How the results depend on the processing

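Counts of called genes stayed within 1.5 times of those reported under each alternative fit, with 1 exception: requiring at least 2-fold as well left 3724 higher and 2264 lower. On the recovered reads edgeR called 6511 higher and 5673 lower, and DESeq2 6398 and 5879. Leaving out each library in turn gave 5616 to 6560 genes higher and 4949 to 6025 lower than in parental cells, 5024 to 6059 and 4753 to 5771 against resistant 2, and 2201 to 2603 above and 1637 to 2034 below both. With the replicate block the counts were 6108 and 5479 against parental cells, 5603 and 5300 against resistant 2, and 2513 and 1890 apart from both. The replicate numbers did not pair resistant 1 with parental libraries, whose deviations from the group means correlated at -0.0874, -0.128 and -0.28 for replicates 1 to 3, nor resistant 2 with parental ones, at -0.0502, -0.17 and -0.159. Between same-numbered libraries of resistant 1 and resistant 2 they correlated at 0.0855, 0.264 and 0.376, and between different-numbered ones from -0.316 to 0.113, of which 4 of 6 were negative; one of the 3 same-numbered pairs did not pass 0.1. Quantile normalization moved the median log2 fold change of all genes to -0.12, from 0.01, and calls to 5673 higher and 6882 lower; the medians of potassium channels and of the BCL2 family turned to -0.15 and -0.20, from 0.28 and 0.17, and FN1 could then not be told apart between the resistant populations. Over all named genes and alternatives, 7733 values kept their direction and call, 149 were no longer called, 29 became called and 0 turned round. In the simulated data, where far fewer genes were changed than were called here, changes of 1.5-fold were found in 19.4% of cases and 4-fold ones in 93.9%.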
